A study of Mus musculus with 8 samples.

Results

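The 10 genes described here form the core of the Notch pathway as it was measured in embryonic mouse ventricles: the receptors Notch1, Notch2, Notch3 and Notch4, the ligands Dll4, Jag1 and Jag2, the DNA-binding factor Rbpj, and the transcriptional repressors Hey1 and Heyl. They were taken by name from a table of 55291 genes, and no threshold on their values entered the rule. However, they and the other lists used below were chosen with earlier results of these data known. Comparisons of their counts with the shares over all genes are therefore a description. All 10 were among the 26820 genes with enough counts to be tested (a total of at least 8 over all libraries). RNA was sequenced from ventricles of 8 embryos at embryonic day 10.5, with 4 biological replicates in each group. Knockout embryos (cKO) were Pkn2 fl/fl; XMLC2-Cre+, so that Pkn2, which encodes a serine/threonine kinase, was deleted where this cardiomyocyte driver was active. Controls were Cre-negative Pkn2 fl/fl littermates. The strain was given as C57BL/6 for both groups, and the paper states that all lines were kept on C57BL/6N. Embryos of both groups thus carried 2 floxed alleles, and only the cKO embryos carried the Cre transgene, so that effects of Cre and of Pkn2 loss cannot be told apart here. By the design of the driver, cells other than cardiomyocytes, among them the endocardium, keep Pkn2 in this model.

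Notch receptors are single-pass membrane proteins that are cut when a ligand on a neighbouring cell binds them. The freed intracellular part enters the nucleus, joins Rbpj and the Mastermind coactivators, and switches on target genes, among them the Hes and Hey repressors. In the embryonic heart, Notch1, Notch4 and Dll4 are best known from endocardium and vessel endothelium, Notch3 from mural cells, and Jag1, Jag2 and Hey genes from endocardium as well as myocardium. Signalling between endocardium and myocardium is a known requirement for trabeculation. Nrg1, an endocardial growth factor, and Hey2, a transcriptional repressor expressed in the compact myocardium, take part in it.

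The bases just upstream of 3 genes are shown because 2 of them, Dll4 and Notch4, had the largest fold changes among the members, and the third, Hey2, is the pathway target that fell. Each window has 250 bases, was taken from RefSeq on GRCm38.p6 and is written 5′ to 3′ on the strand of the gene. Capitals mark matches, on either strand, to 4 short motifs: TGGGAA (bound by Rbpj), CCGGAA (ETS factors), ACAAT (SOX factors) and CACGTG (Hey and Hes factors). Dll4 lies at chr2:119325534-119325783 (plus strand), Notch4 at chr17:34564045-34564294 (plus strand) and Hey2 at chr10:30842784-30843033 (minus strand).
Dll4: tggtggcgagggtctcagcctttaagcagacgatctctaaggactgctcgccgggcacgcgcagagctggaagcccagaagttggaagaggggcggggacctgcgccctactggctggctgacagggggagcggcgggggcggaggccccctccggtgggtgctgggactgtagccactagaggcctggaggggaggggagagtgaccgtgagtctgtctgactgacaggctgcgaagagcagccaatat
Notch4: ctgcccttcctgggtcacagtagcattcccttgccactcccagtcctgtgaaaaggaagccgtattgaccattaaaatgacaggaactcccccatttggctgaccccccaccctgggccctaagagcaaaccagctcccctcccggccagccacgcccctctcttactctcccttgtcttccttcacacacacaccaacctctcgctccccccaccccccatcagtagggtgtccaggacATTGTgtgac
Hey2: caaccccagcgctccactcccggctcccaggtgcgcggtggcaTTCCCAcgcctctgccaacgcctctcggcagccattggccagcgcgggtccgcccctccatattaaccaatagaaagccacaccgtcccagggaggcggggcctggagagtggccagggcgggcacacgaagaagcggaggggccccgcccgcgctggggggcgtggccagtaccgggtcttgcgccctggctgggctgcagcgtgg

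In the Hey2 window, TTCCCA, the reverse complement of TGGGAA, began 207 bases before the end nearest to the gene. In the Notch4 window, ATTGT, the reverse complement of ACAAT, began 10 bases before the same end of its window. The Notch4 match lies within the stretch that the deposited table already counts as Notch4. The Dll4 window held none of the 4 motifs. Of 32851 mouse windows of the same length, 21.6% held TGGGAA, 12% CCGGAA, 27.7% ACAAT and 6.02% CACGTG, so that single matches of this kind are common. Windows were available for 8 of the 10 members. Those of Notch1, Notch2, Notch3 and Jag2 held none of the 4 motifs, and that of Jag1 held ACAAT. Rbpj had 2 windows, which held TGGGAA and lie within the transcribed span given for that gene in the deposited table. GC content was 65.6% for Dll4, 58.4% for Notch4 and 71.6% for Hey2. The Jag2 window is not shown, since it lies within the transcribed span given for the gene in the deposited table.

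The libraries held 47559845 to 56660938 counts, and all 12 pairs of libraries from the same group differed by more than counting error. Pkn2 was 133, 139, 152 and 153 CPM (counts relative to library size) in control replicates 1 to 4 and 83.1, 77.6, 79.6 and 84.3 CPM in cKO replicates 1 to 4. Its log2 fold change was −0.83 (SE 0.060; Benjamini-Hochberg adjusted p = 7.67e-06, edgeR's quasi-likelihood test), so that the targeted gene was lower in every library labelled cKO. The scaling takes library composition into account, and the adjusted p-values that follow come from the same test over all 26820 genes. A gene is called where its adjusted p was at most 0.05. The tissue was rich in cardiomyocyte RNA in both groups: 12 cardiomyocyte markers summed to 42160 to 46680 CPM in the controls and 41830 to 45220 CPM in the cKO.

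Of the 10 genes, 8 had a higher mean in the cKO and 2, Notch2 and Rbpj, a lower one, against 49.8% of all genes tested with a log2 fold change above 0. The median log2 fold change was 0.26 over the members and −0.0008 over all genes tested. Jag2 was the 1 member called, in a comparison in which 0.515% of genes were called higher and 0.343% lower. No member was past both an adjusted p of 0.05 and a 1.5-fold change, as 0.365% of genes were. At an unadjusted p under 0.05 there were 5 members, namely Jag2, Dll4, Notch1, Notch4 and Notch3, as were 12.8% of all genes tested. DESeq2 called 2 of them, Jag2 and Dll4, and limma-voom 1. Over all genes tested DESeq2 called 3.23% and limma-voom 0.626%, against 0.858% in edgeR's test. For Dll4 and Jag2 the lowest cKO library was above the highest control library, which held for 3.14% of all genes tested.

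**Figure D1:**
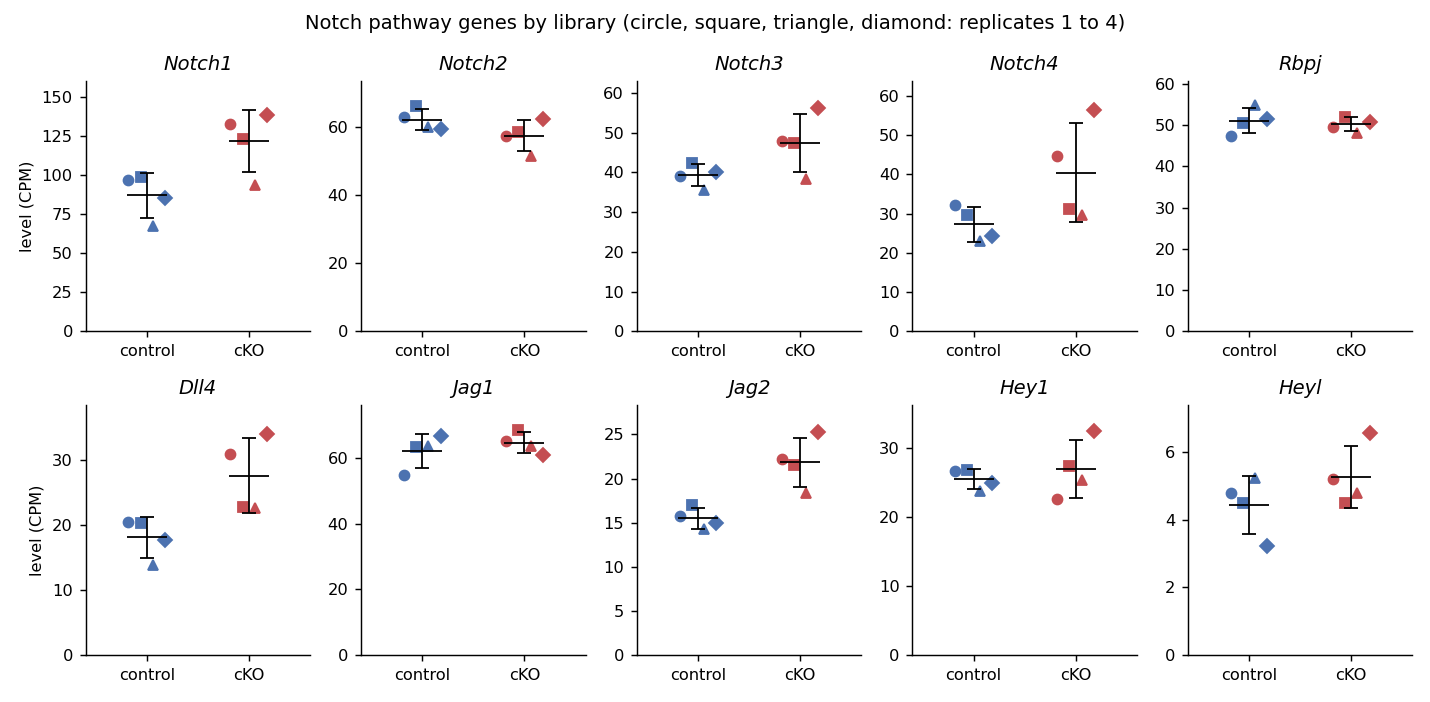
Level of each of the 10 Notch pathway genes in CPM (y axis, from 0) in the 4 control (blue) and 4 cKO (red) libraries, with 1 symbol per replicate number and the mean ± SD as black bars. Only for Dll4 and Jag2 do the red and blue symbols not overlap in height, and the red diamond, cKO replicate 4, is the highest symbol in 7 of the 10 panels.

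Of the 3 ligands, Jag2 passed the test, Dll4 lay just outside the threshold and Jag1 differed little. Jag2, a Serrate-type ligand, was 15.7, 16.99, 14.2 and 14.9 CPM in control replicates 1 to 4 and 22.2, 21.5, 18.4 and 25.2 CPM in cKO replicates 1 to 4. All cKO libraries were thus above all controls, with replicate 4 the highest and replicate 3 the lowest of the cKO. The means were 15.5 ± 1.18 and 21.8 ± 2.82 CPM (SD, n = 4 each), a 1.41-fold rise with a log2 fold change of 0.50 (SE 0.095; Benjamini-Hochberg adjusted p = 0.0214, edgeR's quasi-likelihood test). In the exact permutation test, two-sided, p was 0.0286, the smallest that 4 against 4 samples allow.

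Dll4, a Delta-type ligand of arterial and endocardial endothelium, was 20.5, 20.3, 13.7 and 17.7 CPM in control replicates 1 to 4 and 30.9, 22.8, 22.5 and 33.9 CPM in cKO replicates 1 to 4. The groups did not overlap, but cKO replicates 2 and 3 were close to the highest controls while replicates 1 and 4 were well above them. Dll4 had the largest difference of the 10 genes, 1.53-fold, with a log2 fold change of 0.61 (SE 0.138; exact permutation p = 0.0286). Its adjusted p was 0.0503 in edgeR's quasi-likelihood test, just outside the threshold. DESeq2 gave an adjusted p of 0.00155 for it and limma-voom did not call it. An antisense gene that overlaps Dll4, Gm14207, had 416 counts against 9390 for Dll4 (4.43%), and whether counting used the strand is not given in the sources used here.

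Jag1, the other Serrate-type ligand, was 54.7, 63.3, 63.6 and 66.8 CPM in control replicates 1 to 4 and 65.3, 68.7, 63.7 and 61.1 CPM in cKO replicates 1 to 4. The groups overlapped, and the log2 fold change was 0.06 (SE 0.066; adjusted p = 0.799 in edgeR's quasi-likelihood test). Calls on ligands depended on the libraries used, as did calls over all genes. The adjusted p of Jag2 in edgeR's test was 0.0776 without control replicate 1 and 0.0853 without control replicate 3. It was 0.0958 without control replicate 4 and 0.0719 without cKO replicate 1. In these settings 67, 87, 69 and 71 genes were called in all, against 230 with all libraries. The log2 fold change of Jag2 was 0.51, 0.46, 0.48 and 0.50 there. For Dll4 the adjusted p in edgeR's test was 0.0305 without cKO replicate 2 and 0.0166 without cKO replicate 3. In these settings 284 and 744 genes were called.

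Among the receptors, Notch1 was 96.6, 98.8, 67.3 and 85.04 CPM in control replicates 1 to 4 and 133, 123, 93.3 and 138 CPM in cKO replicates 1 to 4. The 3 cKO replicates 1, 2 and 4 were above all controls, and cKO replicate 3 fell within the control range. The means were 86.9 ± 14.4 and 122 ± 20.1 CPM (SD, n = 4 each), 1.40-fold apart, with a log2 fold change of 0.49 (SE 0.119; adjusted p = 0.0693 in edgeR's quasi-likelihood test; exact permutation p = 0.0857).

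Notch4, a receptor largely restricted to endothelium, was 32.3, 29.6, 23.0 and 24.2 CPM in control replicates 1 to 4 and 44.7, 31.3, 29.6 and 56.3 CPM in cKO replicates 1 to 4. Only cKO replicates 1 and 4 were above all controls, and the SD of the cKO group, 12.6 CPM, was close to the difference between the means of 27.3 and 40.5 CPM. The log2 fold change was 0.57 (SE 0.164; adjusted p = 0.120 in edgeR's quasi-likelihood test; exact permutation p = 0.114).

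Notch3, the receptor of mural cells, was 39.1, 42.5, 35.6 and 40.1 CPM in control replicates 1 to 4 and 47.8, 47.5, 38.3 and 56.3 CPM in cKO replicates 1 to 4. As for Notch1, cKO replicate 3 was the one cKO library within the control range. The log2 fold change was 0.27 (SE 0.093; adjusted p = 0.198 in edgeR's quasi-likelihood test; exact permutation p = 0.114).

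Notch2 was the 1 receptor with a lower mean in the cKO: 63.1, 66.2, 60.0 and 59.6 CPM in control replicates 1 to 4 and 57.4, 58.7, 51.7 and 62.5 CPM in cKO replicates 1 to 4. The first 3 cKO libraries were below all controls and the fourth was not. The log2 fold change was −0.11 (SE 0.064; adjusted p = 0.521 in edgeR's quasi-likelihood test; exact permutation p = 0.143).

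Calls on several members depended on the libraries used, as did calls over all genes. Without cKO replicate 3, edgeR's quasi-likelihood test called 5 members, with adjusted p-values of 0.00717 for Notch1, 0.0225 for Notch3, 0.0285 for Notch4, 0.0166 for Dll4 and 0.00418 for Jag2, and Notch1 and Notch3 joined Dll4 and Jag2 as the 4 members without overlap. Calls over all genes rose in the same setting, from 230 of 26820 to 744 of 26397 genes (2.82%). The share of all genes without overlap was not computed for that setting. Without control replicate 1, 3 or 4 or cKO replicate 1, edgeR's test called 0 members, with 5 at an unadjusted p under 0.05 in each case. Of all genes tested, 0.255%, 0.331%, 0.261% and 0.27% were called in these settings, and 2776, 2901, 2758 and 2563 had an unadjusted p under 0.05. Over the 8 libraries, cKO replicate 4 held the highest value of 7 members and control replicate 3 the lowest value of 5.

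**Figure D2:**
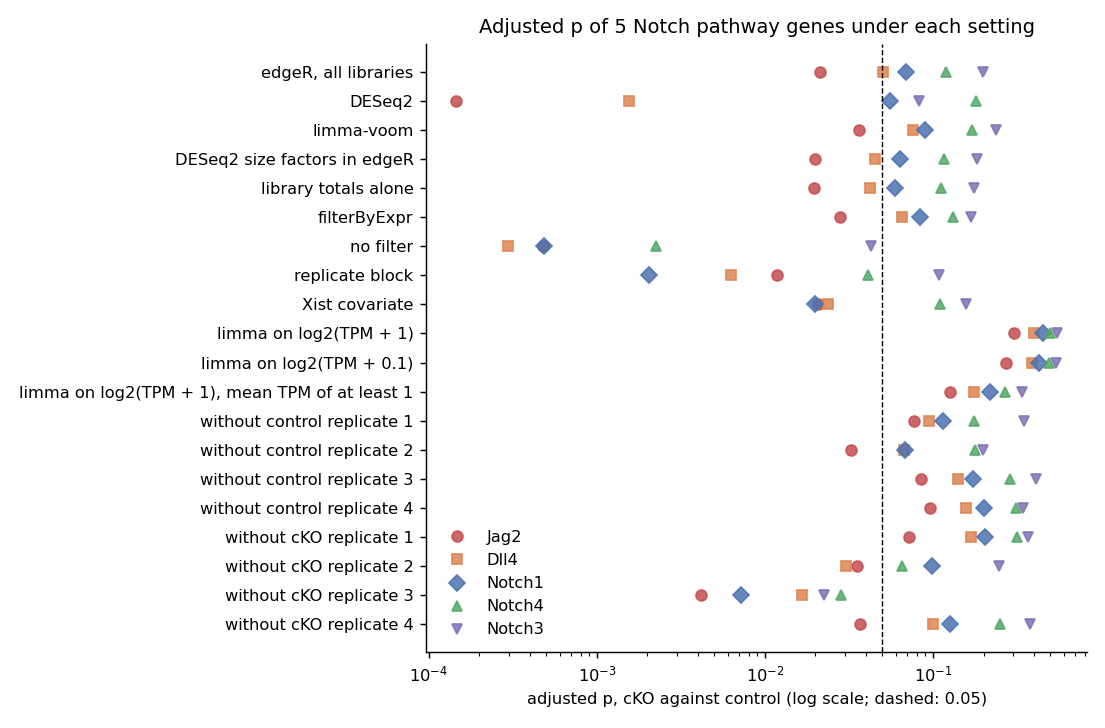
Adjusted p (x axis, log scale, dashed line at 0.05) of the 5 Notch pathway genes with an unadjusted p under 0.05, in the test with all libraries (top line) and under each of 19 alternatives. Jag2 lies left of the line in 12 of 19 alternatives, Dll4 in 8, Notch1 in 4, Notch4 in 3 and Notch3 in 2.

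The nuclear members differed little between the groups. Rbpj, through which all 4 receptors act, was 47.3, 50.6, 54.8 and 51.5 CPM in control replicates 1 to 4 and 49.7, 52.1, 48.2 and 50.9 CPM in cKO replicates 1 to 4, so that the cKO values lay inside the control range. Its log2 fold change was −0.02 (SE 0.059; adjusted p = 0.926 in edgeR's quasi-likelihood test). A processed copy of the gene, Rbpj-ps3, held 451 counts against 20865 for Rbpj (2.16%).

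Hey1, a direct Notch target in endocardium and atrial or trabecular myocardium, was 26.7, 26.8, 23.8 and 25.0 CPM in control replicates 1 to 4 and 22.6, 27.5, 25.4 and 32.5 CPM in cKO replicates 1 to 4. The cKO libraries lay on both sides of the controls, and the log2 fold change was 0.08 (SE 0.093; adjusted p = 0.803 in edgeR's quasi-likelihood test). Without cKO replicate 4 it was −0.015.

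Heyl, a related repressor, was the least abundant member, with 4.81, 4.501, 5.25 and 3.23 CPM in control replicates 1 to 4 and 5.199, 4.51, 4.81 and 6.57 CPM in cKO replicates 1 to 4. The groups overlapped in all but cKO replicate 4. The log2 fold change was 0.25 (SE 0.166; adjusted p = 0.606 in edgeR's quasi-likelihood test).

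Levels of different genes were compared per transcript length, in the authors' TPM values (length-scaled transcript abundances). In controls, Notch1 (20.1 ± 3.62 TPM), Rbpj (19.5 ± 1.22 TPM), Jag1 (19.2 ± 1.74 TPM) and Hey1 (18.7 ± 1.25 TPM; SD, n = 4 for each) were the most abundant, and each overlapped the next in range. Notch2, at 10.99 ± 0.825 TPM, was below Hey1 without overlap. Notch3 (9.26 ± 0.967 TPM), Dll4 (9.08 ± 1.74 TPM) and Notch4 (7.21 ± 1.25 TPM) followed, each overlapping its neighbour. Jag2, at 5.21 ± 0.510 TPM, and Heyl, at 1.74 ± 0.355 TPM, were each below the preceding gene without overlap. In the cKO the means were 27.7 ± 4.49 TPM for Notch1, 14.0 ± 3.07 TPM for Dll4, 10.99 ± 3.48 TPM for Notch4 and 7.55 ± 1.03 TPM for Jag2, so that the mean of Dll4 exceeded those of Notch2 (10.4 ± 0.917 TPM) and Notch3 (11.5 ± 1.93 TPM), which it had not done in controls, although the SDs of these means overlap.

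**Figure D3:**
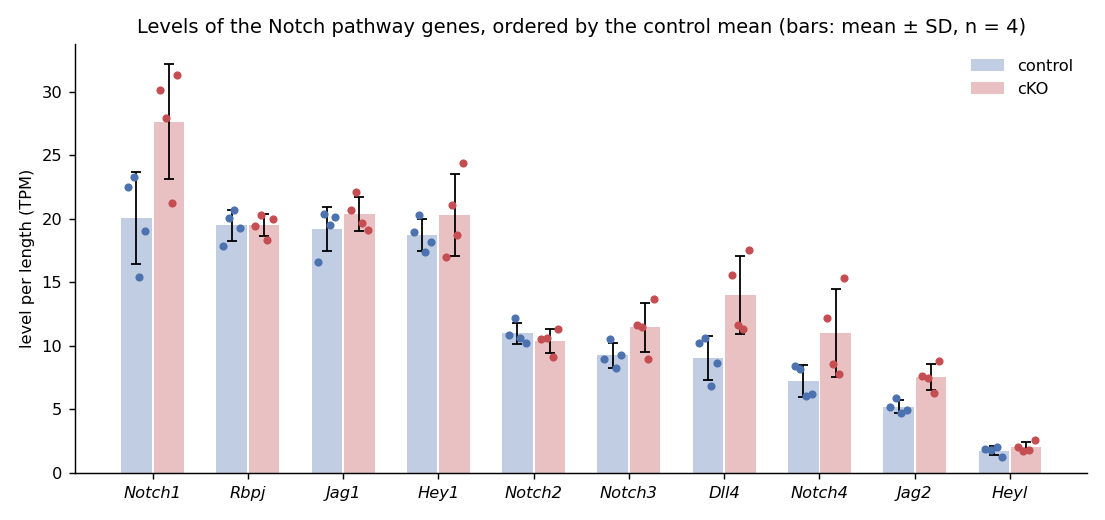
Level per length (y axis, TPM, from 0) of the 10 Notch pathway genes, ordered by control mean, with bars for the mean, error bars for the SD (n = 4) and dots for the libraries of the control (blue) and cKO (red) groups. Control means run from 20.1 TPM for Notch1 to 1.74 TPM for Heyl, and the red dots of Jag2 lie above all its blue dots.

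As a share of the summed TPM of the 4 receptors, Notch2 made up 21.4% to 26.4% in the controls and 15.7% to 19.3% in the cKO, without overlap. Notch1 went from 42.0% ± 2.64 to 45.8% ± 1.73 and Notch4 from 15.1% ± 1.102 to 17.9% ± 2.93 (SD, n = 4), both with overlapping ranges, and Notch3 was 19.6% ± 1.34 and 18.9% ± 0.670. Of the summed TPM of the 3 ligands, Jag2 made up 14.7% to 16.3% in the controls and 16.8% to 19.3% in the cKO, again without overlap. The shares of Jag1 (57.4% ± 4.85 and 48.9% ± 5.46) and Dll4 (27.0% ± 4.28 and 33.1% ± 4.79; SD, n = 4) overlapped between the groups. These shares describe a change in proportion within a library and do not say which gene moved.

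Markers of endothelium and endocardium, in which several of these genes are best known, were read beside them. Of 17 such markers, all 17 had a higher mean in the cKO, 8 were called higher (among them Pecam1, Cdh5, Tie1, Emcn and Nfatc1), 15 had an unadjusted p under 0.05, and 11 did not overlap between the groups. Over all genes tested, the shares were 49.8% with a log2 fold change above 0, 0.515% called higher, 12.8% at an unadjusted p under 0.05 and 3.14% higher without overlap. Their median log2 fold change was 0.44. Summed, they came to 1254 to 1492 CPM in the controls and 1619 to 2083 CPM in the cKO, and no marker was at 0. The mean log2 level of the list, relative to the control mean, was 0.68, 0.27, 0.22 and 0.78 in cKO replicates 1 to 4, against −0.15 to 0.05 in the controls. The cKO libraries with the most endothelial marker RNA, replicates 1 and 4, were also those with the most Dll4, Notch4 and Notch1. This order was not particular to endothelium. Replicates 1 and 4 were also the highest cKO libraries in the mean log2 level of macrophage markers (2.75 and 1.98). The same held for megakaryocyte and platelet markers (1.05 and 1.89) and erythroid markers (0.48 and 0.92). In bulk tissue, more cells of a type and more RNA per cell cannot be told apart. The number of endothelial markers called by edgeR's test also depended on single libraries: it was 0 without control replicate 1, 3 or 4 or cKO replicate 1, 1 without control replicate 2, 4 without cKO replicate 4 and 12 without cKO replicate 2 or 3, with 15 or 16 at an unadjusted p under 0.05 each time. DESeq2 called 15 of them and limma-voom 4.

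Each member was also expressed relative to the mean log2 level of the 17 endothelial markers in its own library, a quantity that does not depend on scaling between libraries. On this scale, Notch1 differed between cKO and control by −0.0019, Jag2 by 0.0014, Notch4 by 0.04 and Dll4 by 0.11 (log2), and the libraries of the groups overlapped for all 4. The relative level of Dll4 was 0.12, 0.08, 0.12 and 0.14 in cKO replicates 1 to 4, inside the control range of −0.23 to 0.15. Relative to these markers, the cKO values of these 4 members lay among or close to those of the controls. The marker list itself was higher by 0.49 (log2) in the cKO, so that any gene with a like rise comes near the controls on this scale. The part of endothelial cells in the Notch gene levels was not tested.

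The others were lower relative to the same markers. Notch2 differed by −0.60, Rbpj by −0.51 and Hey1 by −0.42 (log2), with every cKO library below every control library, as for 36.3% of all genes tested on this scale. Jag1 (−0.43), Heyl (−0.24) and Notch3 (−0.23) overlapped between the groups, Notch3 in cKO replicate 2 alone.

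**Figure D4:**
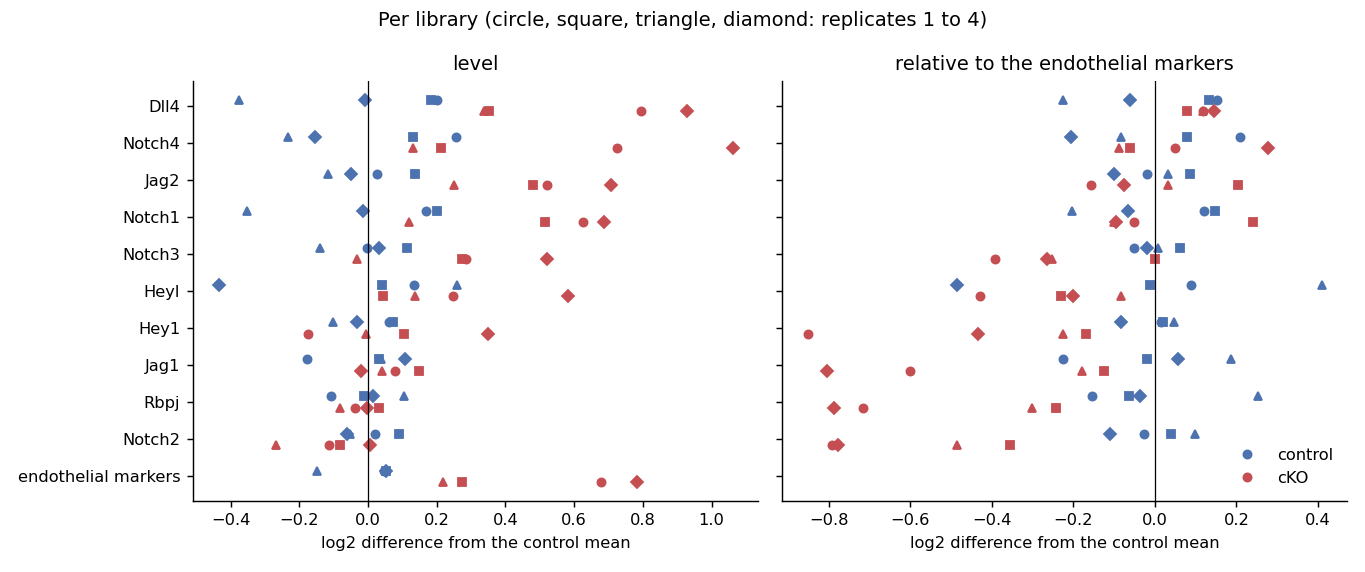
Log2 difference of each library from the control mean (x axes) for the 10 Notch pathway genes, as the level itself (left, with the mean of 17 endothelial markers as the lowest line) and relative to those markers in the same library (right). Controls are blue, cKO red, and symbols give the replicate number. For Dll4, Notch4, Jag2 and Notch1 the red symbols move right on the left panel and mix with the blue ones on the right panel, while those of Notch2, Rbpj and Hey1 lie left of all blue ones on the right panel.

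Other cell types were measured with marker lists too. All 10 macrophage markers had higher means in the cKO, 2 of them called (C1qb and C1qc), with a median log2 fold change of 2.19. Their summed level was low, 7.75 to 14.2 CPM in the controls and 13.7 to 43.7 CPM in the cKO, and their mean log2 level was highest in cKO replicate 1. No macrophage marker was called by limma-voom, with 10 at an unadjusted p under 0.05, and 4 were called by DESeq2. In edgeR's test 0 were called without control replicate 3 or 4 or cKO replicate 1, with 9, 10 and 9 at an unadjusted p under 0.05, 1 without control replicate 1 or cKO replicate 4, 3 without control replicate 2 and 7 without cKO replicate 3. Of 6 megakaryocyte and platelet markers, 6 had higher means (median log2 fold change 1.03, summed 26.2 to 63.7 and 41.7 to 131 CPM), as did 10 of 10 erythroid markers (0.31, 1506 to 4669 and 1386 to 4821 CPM), and none of either list was called by edgeR's test, with 6 and 1 at an unadjusted p under 0.05. Of 6 hepatic and yolk sac markers tested, all 6 had lower means (summed 2.61 to 28.8 CPM in the controls and 0.914 to 2.43 CPM in the cKO), with none called by edgeR's test or limma-voom, 2 by DESeq2 and 6 at an unadjusted p under 0.05 in edgeR's test. Control replicate 1 stood apart in this list, with a mean log2 level of 2.17 relative to the control mean against −1.24 to −0.22 in the other controls and −2.05 to −1.02 in the cKO, and Afp had 860 counts there against 12 to 127 in the other controls. The part of these cells in the Notch gene levels was not tested.

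The marker lists for cells of the wall differed less by their medians. Cardiomyocyte markers (3 of 12 with a higher mean, median log2 fold change −0.06), smooth muscle and pericyte markers (4 of 7, 0.09), epicardial markers (1 of 7, −0.17) and cushion mesenchyme markers (4 of 7, 0.11) had no gene called by edgeR's test, with 3, 2, 2 and 0 at an unadjusted p under 0.05. DESeq2 called 1 cardiomyocyte and 2 epicardial markers. Nkx2-5, Des and Tbx18 were lower in every cKO library than in every control, as 3.77% of all genes were. Their log2 fold changes were −0.32, −0.14 and −0.30. The epicardial marker Aldh1a2 had a log2 fold change of −0.59 (adjusted p = 0.0666 in edgeR's test), with overlap. In controls and cKO, summed levels were 1429 to 1530 and 1364 to 1406 CPM for smooth muscle and pericyte markers, 391 to 437 and 295 to 420 CPM for epicardial markers, and 602 to 753 and 629 to 728 CPM for cushion markers. Most of the first of these sums was Des, which cardiomyocytes also express (1106 and 1001 CPM on average), and the mean log2 level of that list differed by 0.07, with overlap.

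Beyond the 10 members, 57 of 58 further pathway genes were tested, of which 26 had a positive and 31 a negative log2 fold change, with a median of −0.02. Among these, 1 was called higher and 1 lower, and 9 had an unadjusted p under 0.05, close to the 12.8% of all genes. Hes5, a classical target in the nervous system, had 0 counts and was not tested.

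Both called genes were among 9 tested downstream genes. Hey2, which represses trabecular genes in the compact wall, was 102, 108, 106 and 107 CPM in control replicates 1 to 4 and 71.1, 75.1, 79.2 and 83.0 CPM in cKO replicates 1 to 4. It fell in every cKO library below every control, as 3.77% of all genes did, to 0.729 of the control level (log2 fold change −0.46, SE 0.058; Benjamini-Hochberg adjusted p = 0.00171, edgeR's quasi-likelihood test). Its relatives Hey1 and Heyl did not pass the test, and the difference between the 3 genes was not itself tested.

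Nrg1, the endocardial ligand of ErbB receptors on cardiomyocytes, was 18.3, 20.1, 16.5 and 19.6 CPM in control replicates 1 to 4 and 30.1, 29.0, 26.4 and 21.4 CPM in cKO replicates 1 to 4. The groups did not overlap, and here cKO replicate 4, the highest in most members, was the lowest of the cKO. Nrg1 rose 1.43-fold (log2 fold change 0.52, SE 0.0998; adjusted p = 0.0218 in edgeR's quasi-likelihood test), a call lost without control replicate 1 (0.0888), control replicate 3 (0.0866), control replicate 4 (0.0668) or cKO replicate 1 (0.0792). Relative to the endothelial markers Nrg1 differed by 0.02 on average (log2), but its cKO libraries were widely spread. They were at 0.02, 0.37, 0.29 and −0.58 in replicates 1 to 4, against −0.07 to 0.07 in the controls. Hey2 differed by −0.95 on this scale, with every cKO library below every control, as for 36.3% of all genes tested.

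The other downstream genes were not called. The log2 fold changes and adjusted p-values in edgeR's test were −0.11 and 0.625 for Hes1, −0.11 and 0.899 for Nrarp, a feedback inhibitor of the Notch complex, and 0.09 and 0.695 for Efnb2, an arterial ephrin. Hes1, a classical Notch target, was 19.0 to 20.8 CPM in the controls and 16.6 to 19.5 CPM in the cKO, with overlap.

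Among the genes that prepare receptors and ligands, Mfng, a Fringe glycosyltransferase that alters which ligand a receptor answers to, had the largest difference: 3.64, 3.15, 2.56 and 2.74 CPM in control replicates 1 to 4 and 6.35, 3.62, 4.29 and 6.78 CPM in cKO replicates 1 to 4. The values were high in the same cKO libraries as those of Dll4 and Notch4, with cKO replicate 2 just inside the control range. The log2 fold change was 0.80 (SE 0.197; adjusted p = 0.0722 in edgeR's quasi-likelihood test). DESeq2 called it (0.00467), as did edgeR's test without cKO replicate 2 (0.0244) or cKO replicate 3 (0.0341). The related Lfng had a log2 fold change of 0.11 (adjusted p = 0.862), −0.058 without cKO replicate 4. The ligand Dll1 had −0.06 (adjusted p = 0.927), which turned to 0.0092 without control replicate 1 and 0.077 without cKO replicate 4.

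By function, edgeR's test called none of the 5 other ligands (median log2 fold change −0.06), the 5 glycosylation genes (−0.0085), the 4 genes of ligand endocytosis (0.09), the 10 of receptor proteolysis (−0.05), the 8 nuclear coactivators (0.07), the 8 corepressors (0.003) and the 8 turnover genes (−0.01). In that order 0, 1, 1, 0, 1, 1 and 2 of them had an unadjusted p under 0.05, about as many as the 12.8% of all genes would give. DESeq2 called 1 glycosylation gene and none of the others, and limma-voom called none of these 7 lists. The proteolysis genes, which hold Adam10 and the presenilin complex, had log2 fold changes of −0.37 to 0.07 with a lowest adjusted p of 0.511.

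**Figure D5:**
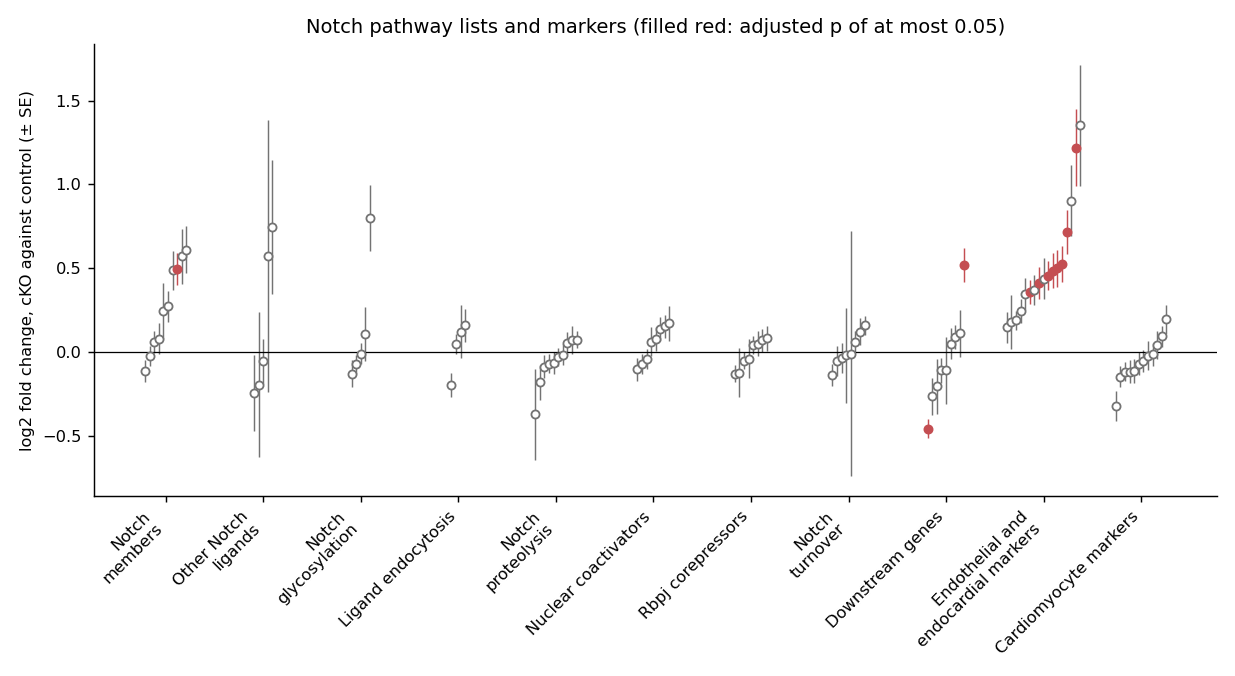
Log2 fold change, cKO against control, with its SE (y axis) for each gene tested in the Notch pathway lists and in 2 marker lists (x axis), sorted within a list. Filled red circles have an adjusted p of at most 0.05: Jag2 among the members, Hey2 and Nrg1 among downstream genes, and 8 of the 17 endothelial markers, all above 0.

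The genes most like each member were sought among 14301 other genes with a mean of at least 1 CPM, by Pearson's r of log2 CPM over the 8 libraries, which share depth and group. Dll4 was most like Tie1, an endothelial receptor kinase on the marker list (r = 0.988), followed by Thsd1 and Arap3 (both 0.987). Notch4 was most like Crtc2 (0.988), Eng, an endothelial coreceptor for TGF-β ligands (0.988), and Epha2 (0.987), and Notch1 most like Rrbp1 (0.983), Ece1 (0.981) and Pcdh1 (0.980). Jag2 was most like Itgb2 (0.982), a leukocyte integrin chain, Lyl1 (0.981) and Pros1 (0.981), and Notch3 most like Mapk8ip3 (0.987), Atp8b2 (0.981) and Fhl3 (0.978).

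The members that differed least between the groups had less close companions. These were Ssc5d (0.974), Mboat7 (0.960) and Fat3 (0.955) for Notch2, Gm15626 (0.942), Rap1gap2 (0.939) and Gm38357 (0.933) for Jag1, and Trim32 (0.955), Foxp4 (0.951) and Nfya (0.949) for Hey1. For Heyl they were Crem (0.970), Rgma (0.960) and Rap1gap (0.956), and for Rbpj Otud4 (0.961), Zmym2 (0.950) and Hr (0.944). With 8 points, the highest of many correlations is large for any gene, and the values are given as a description.

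On GRCm38, the build that the deposited positions match, the members are spread over 6 chromosomes and 3 of them, Notch1, Dll4 and Jag1, lie on chromosome 2. Dll4 spans 119325784 to 119335962 of that chromosome (plus strand), Notch1 26457903 to 26503822 (minus strand) and Jag1 137081456 to 137116644 (minus strand). Jag2 lies on chromosome 12 at 112907819 to 112929776 (minus strand), and Notch3 and Notch4 on chromosome 17 at 32120820 to 32166852 (minus strand) and 34564268 to 34588503 (plus strand). Notch2 and Hey1 are on chromosome 3, at 98013538 to 98150361 (plus strand) and 8663359 to 8667256 (minus strand), Heyl is on chromosome 4 at 123233556 to 123249875 (plus strand) and Rbpj on chromosome 5 at 53555834 to 53657362 (plus strand).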

How the data were processed

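Poly(A) RNA of E10.5 ventricles was sequenced by the authors in 8 libraries, paired-end, with a read length given as 100 bp in the series text and 150 bp in the protocol. The submitters' processing notes name Trim Galore 0.6.7, HISAT2 2.2.1, StringTie 2.2.1 and featureCounts. The deposited counts per gene are not normalized, and the deposited TPM values were computed by the authors from transcript length. No column was left out. The notes name GRCm39, but of 36546 genes 87.8% of the deposited starts lay within 1000 bases of the GRCm38 start and 3.26% of the GRCm39 start, so positions are given on GRCm38.

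Counts were tested for the 26820 genes that totalled 8 or more, with edgeR 4.0.16 (TMM, quasi-likelihood F test, design with condition) in R 4.3.3, Benjamini-Hochberg adjusted. SEs were derived from the F statistic, and log2 CPM used a prior count of 2. Exact permutation tests ran over all 70 groupings. The members, lists, motifs and marker genes were chosen with earlier results of these data known, and the test was checked on simulated data. All 10 members are named, with Pkn2, called genes of the other lists, Hes1, Hey2, Nrarp, Efnb2, Mfng, Lfng and Dll1, and the 3 genes most like each member.

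Alternatives were DESeq2 1.42.0, limma-voom (limma 3.58.1), DESeq2 size factors or library totals in edgeR, another filter (filterByExpr) or none, a block for the replicate number, log2 Xist CPM as a covariate (mice of both sexes were used in the study), limma on log2(TPM + 1) or log2(TPM + 0.1), the former also with a mean TPM of at least 1, and each library left out in turn. Windows upstream of genes came from RefSeq, and those of Hey1, Heyl and Nrg1 were not used here.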

Additional observations from a re-analysis of the deposited data

How the results depend on the processing

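With all libraries, 230 genes were called, 98 of them past the 1.5-fold threshold too, and 1 of the 10 members. DESeq2 gave 867, 230 and 2, and testing without a filter on low counts gave 878, 366 and 5. Limma-voom gave 62 genes past both thresholds. Members called were 2 with DESeq2 size factors or library totals in edgeR, and 3 with Xist as a covariate. Limma on TPM gave 1, 7 and 22 genes (log2(TPM + 1), log2(TPM + 0.1), and a mean TPM of at least 1), 1, 6 and 10 of them past both thresholds, and in each case 0 members, with 4, 4 and 5 members at an unadjusted p under 0.05. Of the other pathway genes, 2 were called with all libraries and 0, 0 and 1 on TPM, where limma gave 7, 6 and 6 at an unadjusted p under 0.05. Leaving out 1 library at a time gave 67 to 744 genes (744 without cKO replicate 3), 31 to 296 past both thresholds, 0 to 5 members and 1 to 3 other pathway genes, and 2 to 4 members without overlap. Calls were higher in the cKO for 60.0% of called genes with all libraries, 67.7% with library totals, 46.4% with limma-voom, 0, 42.9% and 36.4% in the TPM fits, 69.5% without a filter and 66.8% with the replicate block, and this share ran from 35.8% without control replicate 1 to 70.6% without cKO replicate 3.

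The replicate numbers showed no sign of pairing the libraries. After removal of the group means, same-numbered libraries of cKO and control correlated at −0.19, −0.03, 0.0056 and −0.14 over 14302 genes. Of the 8 libraries, 0 correlated best with the library of the same number. Litters are not named in the sample labels, and whether libraries share a litter was not tested. With the number as a block, 380 genes were called, 168 of them past both thresholds, with 4 members and 3 other pathway genes.

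Over 19 named genes and 19 alternatives, 315 values kept direction and side of the threshold, 22 gained and 16 lost the call, and 8 changed sign, none of these called. Leaving out 1 library at a time gave log2 fold changes of −0.015 to 0.16 for Hey1 (lowest without cKO replicate 4), −0.056 to 0.011 for Rbpj (highest without control replicate 3), −0.058 to 0.20 for Lfng (lowest without cKO replicate 4) and −0.19 to 0.077 for Dll1 (0.0092 without control replicate 1, highest without cKO replicate 4). On TPM, Rbpj was at 0.0034, 0.0036 and 0.0034. Counting error and the spread between embryos were not separated by a test.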
